A study of Mus musculus with 5 samples.

Results

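Tetraspanins are small membrane proteins that gather partners such as integrins, class II molecules and the protease ADAM10 into membrane microdomains. In dendritic cells they act in adhesion, migration, the traffic of antigen-presenting molecules and the release of extracellular vesicles. Here they were taken as every gene symbol made of Tspan and a number, together with Cd9, Cd37, Cd53, Cd63, Cd81, Cd82 and Cd151, which gave 27 of the 27678 genes in the table. The choice used names alone and no measured value, but it was made with earlier results of these data known. Of the 27 members, 26 had a read in at least 1 library, 1 (Tspan12) was at 0 in all 5 libraries, and 21 passed a filter of 10 or more normalized counts in at least 2 libraries and were tested.

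The cells were dendritic cells sorted from mouse bone marrow cultures, with 3 libraries from Etv3-/- mice and 2 from Etv3+/+ mice. Etv3 codes for an ETS-family transcription factor, and the genotypes were compared to learn what its loss does to these cells. The cultures ran for 6 days, with 20 ng/ml of GM-CSF and 5 ng/ml of IL-4 in both genotypes, and live single cells that were CD11c positive, CD11b intermediate, MHC class II high and CD115 negative were sorted to a purity above 95%. The sources used here do not give the strain, age or sex of the mice, the disrupted part of Etv3 or whether replicates were separate animals. The p-values therefore rest on the spread between libraries, which may be technical. In such bulk samples, a change in the share of a cell type and a change in RNA per cell cannot be told apart.

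Libraries held 42983550 to 68253936 recovered reads. The Etv3 transcript itself was at 18691, 20416 and 22856 normalized counts in Etv3-/- libraries and 23050 and 25447 in Etv3+/+ libraries (log2 fold change -0.23, limma adjusted p = 0.567), so the counts do not check the genotype labels, which were used as given. Etv3-/- replicate 3 and Etv3+/+ replicate 2 stood apart in their trend with GC content, with Spearman correlations of 0.41 and -0.42 across genes, against -0.04 to 0.12 in the other 3 libraries. The dendritic cell transcripts Zbtb46, at 11463 ± 723 (SD, n = 3) and 9945 ± 132 (SD, n = 2) normalized counts in Etv3-/- and Etv3+/+ libraries, and Itgax, which encodes CD11c, at 13548 ± 2821 and 10179 ± 524, were present in both genotypes. Of the 9 dendritic cell and sort gate transcripts, 0 passed in limma or edgeR and 4 in DESeq2, where DESeq2 called 8.46% of all tested genes. At an unadjusted limma p under 0.05 there were 4 of the 9, against 18.0% of all tested genes. In 6 of the 9 every Etv3-/- library was above both Etv3+/+ libraries, where this held for 16.7% of all tested genes. Itgax, Flt3 and Ccr7 overlapped between genotypes, with log2 fold changes of 0.39, 0.02 and -0.07. The summed level of the 9 was 2148680 to 2872780 normalized counts in Etv3-/- and 1085130 to 1494530 in Etv3+/+ libraries. Cd74, H2-Ab1 and H2-Aa made up most of that sum, with Etv3-/- means of 853963, 719932 and 533884. Among the 6 were transcripts of molecules used in the sort, each higher in all Etv3-/- libraries as Cd82 was. The log2 fold change was 1.28 for Itgam, which encodes CD11b (limma adjusted p = 0.0635), and 1.56 for H2-Ab1 (0.0949) and 1.24 for H2-Aa (0.115), which encode class II chains. Csf1r, which encodes the CD115 that the sort selected against, was at 2928 ± 547 and 1183 ± 233 normalized counts (limma adjusted p = 0.0683). The part of these differences in the tetraspanin values was not tested.

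Cd82 was the one tetraspanin past the threshold. Its transcript had 27423, 33672 and 36543 normalized counts in Etv3-/- libraries, against 10397 and 5822 in Etv3+/+ libraries. Every Etv3-/- library was above both Etv3+/+ libraries, and the ratio of the group means was 4.01 (log2 fold change 2.05, 95% interval 1.40 to 2.71, limma adjusted p = 0.0249). CD82 is a metastasis suppressor that associates with class II molecules in antigen-presenting cells, and work on mouse dendritic cells describes it as restraining migration and favouring T cell activation. Of the 21 tested members, 1 (4.76%) was called higher, where 0.876% of all 13813 tested genes were called higher. None of the 21 was called lower by limma, where 0.319% of all tested genes were called lower. In edgeR on the recovered reads Cd82 was again the one member called (adjusted p = 0.0337), against 1.14% of all genes called, 0.825% higher and 0.319% lower. DESeq2 on the recovered reads called 4 members higher and 1 lower, against 8.46% of all genes called, 4.6% higher and 3.86% lower. In limma, 8 members had an unadjusted p under 0.05, 6 of them higher and 2 lower, which is 38.1% of those tested against 18.0% of all tested genes, 8.02% higher and 9.93% lower. Cd82 kept its call without Etv3+/+ replicate 1 (adjusted p = 0.0203) and lost it without Etv3+/+ replicate 2 (adjusted p = 0.0574, log2 fold change 1.64), without Etv3-/- replicate 1, 2 or 3 (adjusted p = 0.107, 0.0932 and 0.111), and in limma without the trend term (adjusted p = 0.130). Without both libraries of strongest GC trend its log2 fold change was 1.55 (adjusted p = 0.0805).

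**Figure D1:**
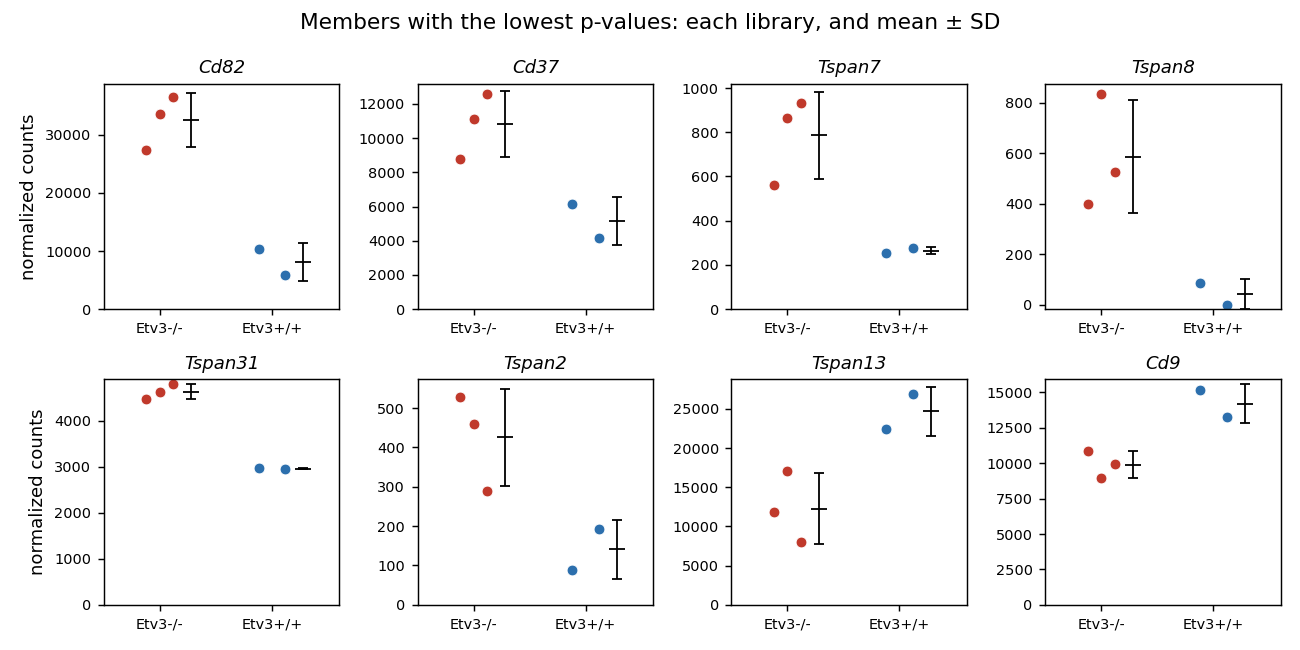
Normalized counts (vertical axes, each starting at or just below 0) of the 8 members with an unadjusted p under 0.05, in Etv3-/- libraries (red, n = 3) and Etv3+/+ libraries (blue, n = 2), with bars for the mean ± SD. In each panel all red points lie on one side of all blue points, and Cd82 was the one gene with an adjusted p under 0.05.

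ETS factors bind DNA around a GGAA core. The start-site windows of Cd82 and Cd37, the members with the lowest p-values, are shown because ETV3 belongs to that family, although no binding was measured here. Each window is from RefSeq on GRCm38.p6, the same assembly as mm10, runs 5′ to 3′ on the minus strand and covers 250 bases before to 50 after a start. Capitals mark CCGGAA and GGAAGT, 2 forms with the core, read on both strands. RefSeq gives 4 starts for Cd82, of which the farthest upstream and the one with matches are shown, and gene counts do not tell which start was used.
Cd82, chr2:93462901-93463200: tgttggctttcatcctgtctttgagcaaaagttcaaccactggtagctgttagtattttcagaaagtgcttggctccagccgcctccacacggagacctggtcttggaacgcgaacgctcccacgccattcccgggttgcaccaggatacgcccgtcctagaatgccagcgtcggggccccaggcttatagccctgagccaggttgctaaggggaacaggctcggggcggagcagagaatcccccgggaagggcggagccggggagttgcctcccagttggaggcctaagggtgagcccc
Cd82, chr2:93461802-93462101: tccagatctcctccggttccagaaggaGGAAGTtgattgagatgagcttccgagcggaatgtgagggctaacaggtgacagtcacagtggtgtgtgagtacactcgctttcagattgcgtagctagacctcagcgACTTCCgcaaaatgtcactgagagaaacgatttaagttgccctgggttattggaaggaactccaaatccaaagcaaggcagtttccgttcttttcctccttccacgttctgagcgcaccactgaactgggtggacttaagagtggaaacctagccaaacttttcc
Cd37, chr7:45238790-45239089: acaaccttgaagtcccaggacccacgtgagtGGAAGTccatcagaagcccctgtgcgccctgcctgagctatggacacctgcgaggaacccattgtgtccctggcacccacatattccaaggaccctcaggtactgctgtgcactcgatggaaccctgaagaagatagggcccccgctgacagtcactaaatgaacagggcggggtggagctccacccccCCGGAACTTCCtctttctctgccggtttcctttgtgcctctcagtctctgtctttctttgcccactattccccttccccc
The second Cd82 window held 2 GGAAGT matches and the first held none, as did the other 2 windows of the gene. The Cd37 window held 1 CCGGAA and 2 GGAAGT matches, and the CCGGAA shares its last base with one GGAAGT. Over the 36 windows of 26 matched members, 38.9% held at least one of the 2 forms, where 32.1% of all 32851 RefSeq windows did. The Tspan7 window held 1 GGAAGT, the Cd9 window and 1 of the 2 Tspan2 windows 1 CCGGAA each, while those of Tspan8, Tspan13 and Tspan31 held neither. A match is a description of these letters and not a binding site.

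The CD-numbered tetraspanins of leukocytes were all tested, and Cd82 was the one of 7 called. Their median log2 fold change was 0.16, where that of all tested genes was -0.06. Cd37, a leukocyte tetraspanin that in mouse dendritic cells promotes migration and restrains antigen presentation, had 8791, 11092 and 12592 normalized counts in Etv3-/- libraries, against 6160 and 4161 in Etv3+/+ libraries. The groups did not overlap and the means stood at a ratio of 2.10, but the adjusted p was above the threshold (log2 fold change 1.08, 95% interval 0.49 to 1.67, limma adjusted p = 0.0961). Of 19 refits, Cd37 passed in 2, after a correction for GC content (limma adjusted p = 0.0468) and in DESeq2 (adjusted p = 0.00232). That correction was added after seeing the data. With replicate number added to that fit the limma adjusted p was 0.0986. The log2 fold change of Cd37 was 0.80 to 1.36 over single-library omissions and 0.68 without both libraries of strongest GC trend. With the GC correction alone Cd82, Cd37 and Tspan7 were called higher and no member lower. There, 2.31% of all genes were called, 1.57% higher and 0.735% lower. Cd9, a partner of integrins and class II molecules, had 10832, 8933 and 9944 normalized counts in Etv3-/- libraries and 15178 and 13233 in Etv3+/+ libraries. All Etv3-/- values were below both Etv3+/+ values (log2 fold change -0.52, 95% interval -0.98 to -0.07, limma adjusted p = 0.227).

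The other CD-numbered members overlapped between genotypes. Cd63, a protein of late endosomes and exosomes, had 33377, 29428 and 42123 normalized counts in Etv3-/- libraries and 48221 and 35017 in Etv3+/+ libraries. The 95% interval of its log2 fold change was -0.83 to 0.34 (limma adjusted p = 0.644). Cd53, a pan-leukocyte member, had 7580, 6701 and 3906 against 3703 and 8223, so that the spread within each genotype exceeded the difference between them (log2 fold change 0.08, limma adjusted p = 0.940). Cd53 took the opposite sign in 3 of the 5 single-library omissions. Cd81, a widely expressed member that is also a receptor for hepatitis C virus in human, averaged 5260 ± 1849 (SD, n = 3) in Etv3-/- and 4071 ± 376 (SD, n = 2) in Etv3+/+ libraries. Its highest value, 7375, was in Etv3-/- replicate 1. Cd151, a partner of laminin-binding integrins, was low, at 154 to 476 and 232 to 342 normalized counts.

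**Figure D2:**
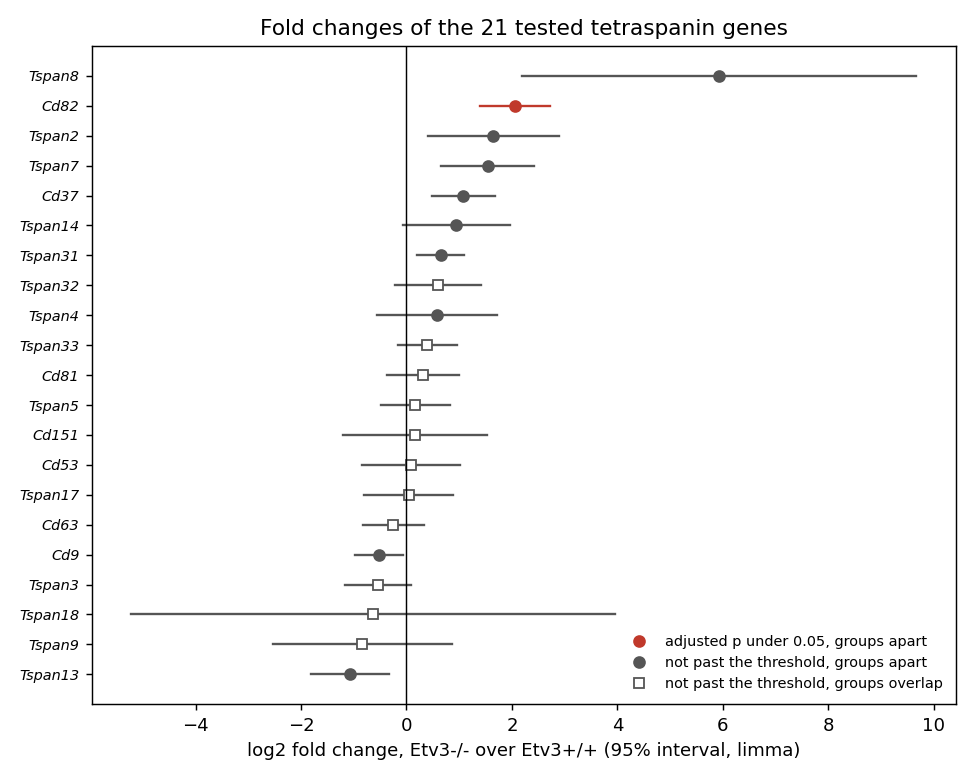
Log2 fold change of Etv3-/- over Etv3+/+ (horizontal axis) with its 95% interval from limma for the 21 tested members, in order of size. Filled points mark members whose groups did not overlap, and red marks an adjusted p under 0.05, which Cd82 alone reached.

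Among the numbered Tspan genes outside the ADAM10 group, 10 of 14 were tested and 0 passed in limma or edgeR and 3 in DESeq2. At an unadjusted limma p under 0.05 there were 5. Over all tested genes DESeq2 called 8.46%, and 18.0% had such a limma p. The median log2 fold change of the 10 was 0.59. Tspan7, whose human counterpart is mutated in X-linked intellectual disability, had 563, 863 and 933 normalized counts in Etv3-/- libraries, against 254 and 275 in Etv3+/+ libraries. The ratio of means was 2.98 (log2 fold change 1.54, 95% interval 0.66 to 2.42, limma adjusted p = 0.108). Of 19 refits, Tspan7 passed in 2, limma with the GC correction (adjusted p = 0.0499) and DESeq2 (adjusted p = 0.00283). Its adjusted p was 0.0980 in edgeR, and 0.123 in limma with the GC correction and replicate number in the fit. Tspan8, best known from gut epithelium and carcinomas, had 398, 833 and 526 normalized counts in Etv3-/- libraries, against 83.9 and 0 in Etv3+/+ libraries. The ratio of means was 14.0, a log2 value of 3.80. The fitted log2 fold change of 5.93 was larger because Etv3+/+ replicate 2 was at 0 (95% interval 2.18 to 9.67, limma adjusted p = 0.125). It was 2.72 (adjusted p = 0.118) without that library and 9.13 (adjusted p = 0.0129) without Etv3+/+ replicate 1, the one single-library omission in which Tspan8 passed. Tspan2, a member expressed in oligodendrocytes, had 528, 459 and 288 normalized counts in Etv3-/- libraries and 88.5 and 193 in Etv3+/+ libraries. All 3 Etv3-/- values lay above both Etv3+/+ values (log2 fold change 1.65, 95% interval 0.40 to 2.90, limma adjusted p = 0.181). Tspan2, Cd53 and Tspan5 lie on chromosome 3 with Etv3, at 15.2, 19.2 and 51.2 Mb from it, and whether flanking sequence of the targeted allele differs between the mice was not tested.

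Tspan31, first described as a gene amplified in sarcoma, was the least variable of these. It had 4480, 4620 and 4809 normalized counts in Etv3-/- libraries, against 2965 and 2950 in Etv3+/+ libraries, a ratio of means of 1.57 (log2 fold change 0.65, 95% interval 0.20 to 1.10, limma adjusted p = 0.155). Tspan31 shares 641 exon bases with Cdk4 on the opposite strand, and Cdk4, a cell cycle kinase gene, averaged 7637 in Etv3-/- and 5551 in Etv3+/+ libraries (limma adjusted p = 0.321). The strand setting of the counting is not given in the sources used here, so reads of that pair cannot be told apart. Of the tested members, 9 share exon bases with an opposite-strand gene.

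Tspan13 and Tspan3 were among the most abundant transcripts of the family and had negative fold changes. Tspan13 had 11826, 17017 and 7956 normalized counts in Etv3-/- libraries, against 22478 and 26847 in Etv3+/+ libraries. The groups did not overlap (log2 fold change -1.07, 95% interval -1.81 to -0.33, limma adjusted p = 0.153). Its lowest value was in Etv3-/- replicate 3, and without that library the log2 fold change was -0.79 (adjusted p = 0.283). Tspan13 passed in 1 of 19 refits, DESeq2 (adjusted p = 0.0446). Tspan3 had 35075, 53187 and 35518 normalized counts in Etv3-/- libraries and 51722 and 67243 in Etv3+/+ libraries. Etv3-/- replicate 2 lay above Etv3+/+ replicate 1, so the groups overlapped (log2 fold change -0.54, 95% interval -1.17 to 0.08, limma adjusted p = 0.342).

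The rest of this set gave no call. Tspan32, a haematopoietic member, had 1123 to 1508 normalized counts in Etv3-/- and 608 to 1179 in Etv3+/+ libraries. Tspan4, found in migrasomes, had 196 to 324 and 146 to 191, groups that did not overlap although the 95% interval of the log2 fold change was -0.55 to 1.73. It shares 292 exon bases with Chid1 on the opposite strand, and reads of that pair cannot be told apart. Chid1 averaged 2230.5 normalized counts in Etv3-/- and 1200 in Etv3+/+ libraries (limma adjusted p = 0.120). Tspan9, known from platelets, had 89.4 to 404 and 287 to 620. Tspan18, an endothelial member, was near the filter at 0 to 64.0 and 5.59 to 45.4 normalized counts.

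**Figure D3:**
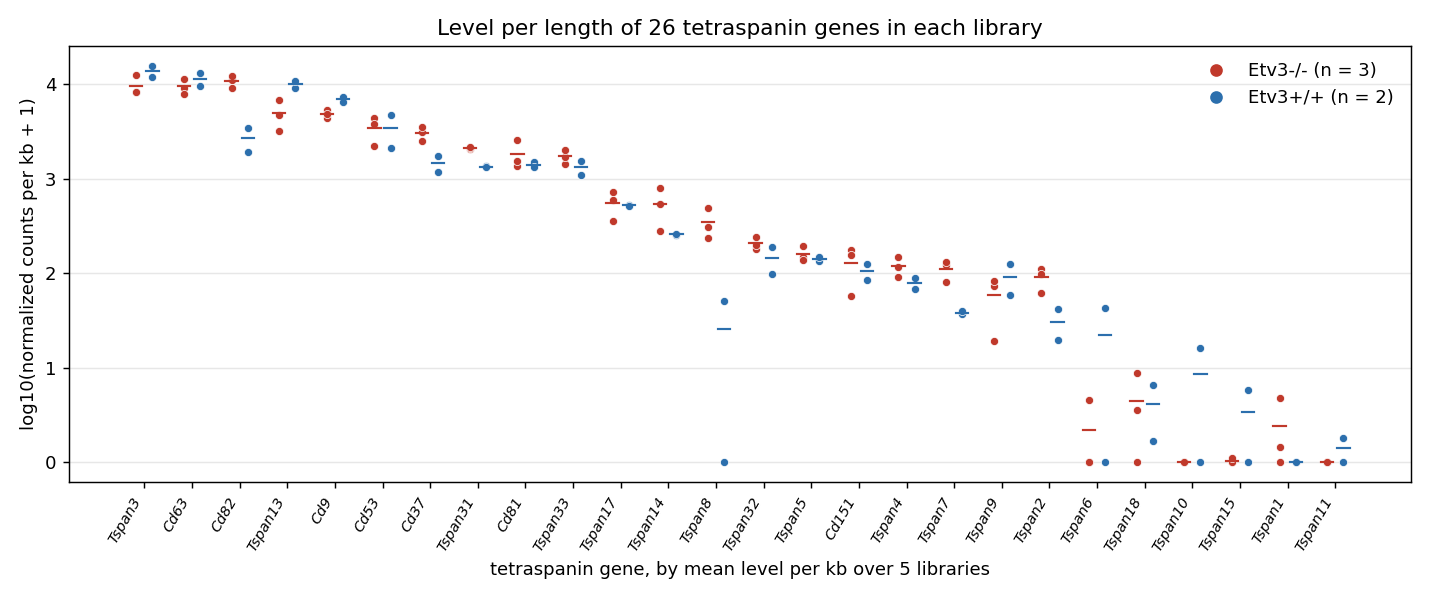
Level per length, as log10 of normalized counts per kilobase of exon plus 1 (vertical axis), of the 26 members with a read, in Etv3-/- libraries (red, n = 3) and Etv3+/+ libraries (blue, n = 2), with a line at each group mean. Members run from Tspan3, at 9654 and 13917 normalized counts per kilobase in Etv3-/- and Etv3+/+ libraries, to genes at or near 0.

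The TspanC8 members, which carry ADAM10 out of the endoplasmic reticulum and direct its shedding of surface proteins, gave 0 calls in limma, edgeR or DESeq2 among 4 tested of 6, and 0 had an unadjusted limma p under 0.05, with a median log2 fold change of 0.28. Tspan33 was the most abundant of them per length, at 1727 ± 295 normalized counts per kilobase in Etv3-/- and 1323 ± 317 in Etv3+/+ libraries (SD, n = 3 and n = 2). Tspan14 had 2132, 747 and 1435 normalized counts in Etv3-/- libraries, against 676 and 690 in Etv3+/+ libraries. All 3 were above both Etv3+/+ values, but they spanned a wide range (log2 fold change 0.95, 95% interval -0.07 to 1.97, limma adjusted p = 0.313). Tspan5 and Tspan17 overlapped between genotypes, at 1010 to 1425 against 999 to 1084 and at 593 to 1187 against 852 to 874 normalized counts. Tspan10 was at 0 in all Etv3-/- libraries and in Etv3+/+ replicate 1 and at 27.4 normalized counts in Etv3+/+ replicate 2. Tspan15 had 0.877 normalized counts in Etv3-/- replicate 3, 39.4 in Etv3+/+ replicate 2, and 0 elsewhere.

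The other members below the filter were Tspan1, Tspan6 and Tspan11. Tspan6 had 86.7 normalized counts in Etv3+/+ replicate 1 and 7.43 in Etv3-/- replicate 2, and was at 0 in the other 3 libraries. Tspan1 reached 8.77 normalized counts in Etv3-/- replicate 3 and Tspan11 4.28 in Etv3+/+ replicate 2. None of these was detected in more than 2 libraries.

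The summed level of the family per length was alike in the 5 libraries, while its composition differed. Over all members it came to 51791, 57348 and 53852 normalized counts per kilobase in Etv3-/- libraries and 54999 and 55549 in Etv3+/+ libraries. Cd82 made up 17.6%, 19.5% and 22.6% of that sum in Etv3-/- libraries, against 6.29% and 3.49% in Etv3+/+ libraries. By group mean it ranked 1 in Etv3-/- cells, at 10831 ± 1552 normalized counts per kilobase, and 6 in Etv3+/+ cells, at 2699 ± 1077. Tspan13 made up 9.07 ± 3.01% in Etv3-/- libraries and 18.0 ± 2.13% in Etv3+/+ libraries (SD, n = 3 and n = 2). Tspan3 took 17.7 ± 3.51% and 25.2 ± 4.47%, and Cd63 17.6 ± 3.65% and 20.5 ± 4.73% (SD, n = 3 and n = 2), in Etv3-/- and Etv3+/+ libraries. The per-library levels of Cd82, Tspan3 and Cd63 overlapped in Etv3-/- cells, as did those of Tspan3 and Cd63 in Etv3+/+ cells. Because shares add up to the whole, a higher share of Cd82 lowers the others. The level of Tspan13 was lower too, at 4958 ± 1838 normalized counts per kilobase in Etv3-/- and 9969 ± 1249 in Etv3+/+ libraries (SD, n = 3 and n = 2).

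**Figure D4:**
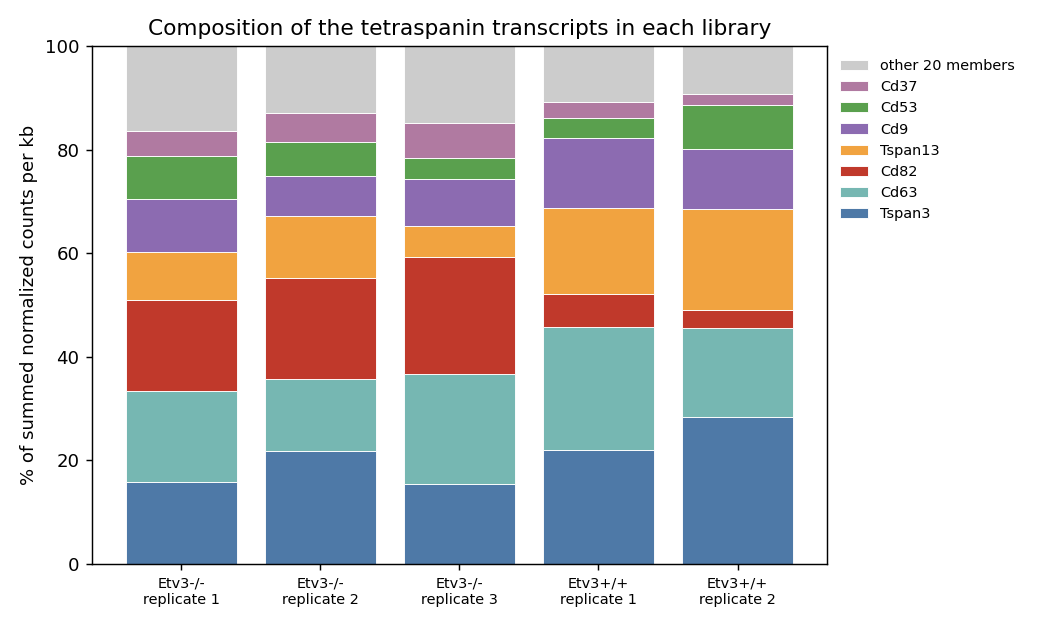
Share of the summed normalized counts per kilobase of the 27 members (vertical axis, percent) taken by the 7 members of highest level and by the other 20 together, in each library. The red Cd82 segment is 17.6% to 22.6% in Etv3-/- libraries and 3.49% to 6.29% in Etv3+/+ libraries.

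Over the family, 15 tested members had a positive and 6 a negative log2 fold change, with the same split under TMM and upper-quartile scaling and 12 to 16 positive members over all refits. The median log2 fold change was 0.32, against -0.06 for all tested genes, and the median absolute value 0.59 against 0.48. The groups did not overlap for 10 of the 21 (47.6%), 8 higher and 2 lower in Etv3-/- libraries, where 36.0% of all tested genes did not overlap, 16.7% higher and 19.3% lower. The members are not independent samples, and no test was made over them as a set.

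**Figure D5:**
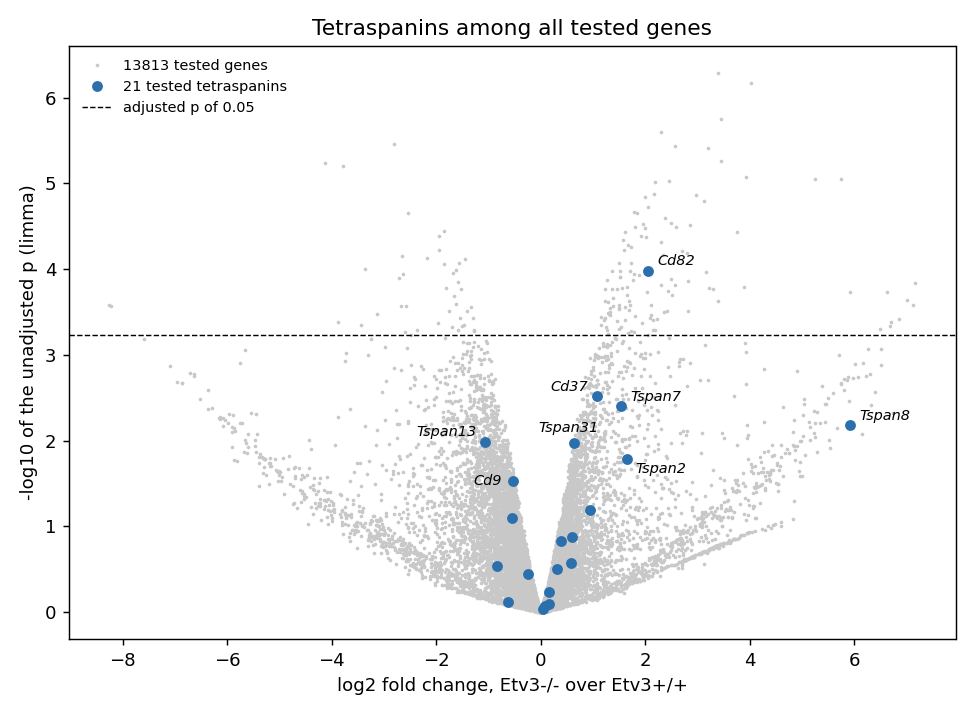
Log2 fold change of Etv3-/- over Etv3+/+ (horizontal axis) against -log10 of the unadjusted limma p (vertical axis) for the 13813 tested genes (grey) and the 21 tested tetraspanins (blue). Cd82 lies above the dashed line of an adjusted p of 0.05 and the other 20 below it.

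Genes tied to tetraspanins by general knowledge were read from 5 lists, 113 genes in all. Of these 104 were tested, 5 rose and 1 fell, where 1.19% of all tested genes were called in either direction. On the list of lateral partners, 2 of 27 tested genes rose and 0 fell by limma, with a median log2 fold change of 0.14. At an unadjusted limma p under 0.05 there were 12, 8 higher and 4 lower, against 18.0% of all tested genes, 8.02% higher and 9.93% lower. Calls numbered 1 in edgeR and 11 in DESeq2, against 1.14% and 8.46% of all genes. The genes that rose in limma were the chains of the integrin LFA-1. Itgb2, the shared beta chain of leukocyte integrins, had 28644, 23517 and 26431 normalized counts in Etv3-/- libraries, against 11446 and 7384 in Etv3+/+ libraries (limma adjusted p = 0.0356). Itgal, its alpha partner, had a log2 fold change of 2.43 (limma adjusted p = 0.0363), and lost its call in edgeR. Other integrin chains were among the 4 lower genes. The log2 fold change was -1.79 for Itga4 (limma adjusted p = 0.0810) and -3.88 for Itga3 (limma adjusted p = 0.120), and DESeq2 called both. Igsf8, which binds CD9 and CD81 directly, averaged 6225 ± 1836 and 3988 ± 601 (limma adjusted p = 0.292), and Ptgfrn, the related partner, was at 0 in all 5 libraries.

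On the ADAM10 list, 2 of 20 tested genes rose and 1 fell, with a median log2 fold change of 0.19. At an unadjusted limma p under 0.05 there were 13, 9 higher and 4 lower, against 18.0% of all tested genes. Calls numbered 3 in edgeR and 7 in DESeq2, against 1.14% and 8.46% of all genes. Adam10 itself had 6952, 11458 and 4693 normalized counts in Etv3-/- libraries, against 12194 and 14554 in Etv3+/+ libraries. All Etv3-/- values were lower, but the adjusted p was above the threshold (log2 fold change -0.89, 95% interval -1.71 to -0.07, limma adjusted p = 0.249). Il6ra, a receptor chain that is shed from the surface, had 1782, 1098 and 1362 normalized counts in Etv3-/- libraries, against 264 and 299 in Etv3+/+ libraries (limma adjusted p = 0.0280). The log2 fold change was 2.31 for Axl, a phagocytic receptor (limma adjusted p = 0.00765), and -2.66 for the Notch ligand gene Jag1 (limma adjusted p = 0.0348). On the vesicle and late endosome list, 0 of 29 tested genes passed in limma or edgeR and 2 in DESeq2, which called 8.46% of all genes. At an unadjusted limma p under 0.05 there were 4 of the 29, against 18.0% of all tested genes. Of the 4, Sdc3 was higher and Sdc1, Stam2 and Rab11a were lower. The list's median log2 fold change was -0.19. Its most abundant members were Anxa2, an annexin, at 103275 ± 12159 in Etv3-/- and 97248 ± 7441 in Etv3+/+ libraries, and Anxa5, at 51666 ± 5727 and 68655 ± 6187. Tetraspanins carry palmitate, and a further list held enzymes that add or remove protein palmitate, with Golga7. Which of these act on tetraspanins was not tested. On that list 1 of 27 tested genes rose, Abhd17c. It had 4265, 5237 and 4341 normalized counts in Etv3-/- libraries against 1823 and 1912 in Etv3+/+ libraries (limma adjusted p = 0.0367). The list's median was -0.11. Of the 27, 5 had an unadjusted limma p under 0.05, against 18.0% of all tested genes, 8.02% higher and 9.93% lower. Calls numbered 1 in edgeR and 3 in DESeq2, against 1.14% and 8.46% of all genes. Besides Abhd17c, the 5 were Zdhhc6, Zdhhc15, Zdhhc23 and Zdhhc24, all lower in Etv3-/- libraries. Their log2 fold changes were -0.80, -4.42, -6.71 and -0.88, and DESeq2 called Zdhhc15 and Zdhhc23. Of the tetraspanin genes whose names the rule does not cover, 2 of 4 were tested and 0 passed in limma, edgeR or DESeq2. Rom1, a photoreceptor disc protein, averaged 984 ± 131 in Etv3-/- and 994 ± 130 in Etv3+/+ libraries, and Upk1a, a urothelial plaque protein, 42.1 ± 11.2 and 9.41 ± 13.3.

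Some tetraspanins are abundant in other cell types, whose markers were read beside them. Of 12 macrophage and monocyte markers, all tested, 3 (the complement genes C1qa, C1qb and C1qc) rose, where 0.876% of all tested genes were called higher. None was at 0 in all libraries, and the summed level of the 12 was 22148 to 29052 normalized counts in Etv3-/- and 10429 to 10832 in Etv3+/+ libraries. Cd68, Fcgr1, Ly6c2 and Mrc1 overlapped between genotypes, and Ly6c2 and Mrc1 had negative log2 fold changes, -0.64 and -0.02. Of 7 tested B cell markers, 0 passed in limma or edgeR and 3 in DESeq2, with 4 at an unadjusted limma p under 0.05. DESeq2 called 8.46% of all tested genes, and 18.0% had such a limma p. The B cell sum was 3386 to 5240 and 1682 to 2235, and Cr2 was at 0 in all libraries. Ms4a1 and Ebf1 of that list had negative log2 fold changes, -1.01 and -1.37 (limma adjusted p = 0.578 and 0.698). T and NK cell markers summed to 2779 to 4116 in Etv3-/- and 4790 to 5300 in Etv3+/+ libraries, with Ncr1 at 0. Megakaryocyte and platelet markers summed to 1198 to 1466 and 1021 to 1180, with Gp1bb at 0. Ppbp of that list was at 123, 22.3 and 52.6 normalized counts in Etv3-/- libraries, against 406 and 436 in Etv3+/+ libraries (limma adjusted p = 0.121). Gp9, Gp1ba and Treml1 were low but higher in all Etv3-/- libraries. Their means were 16.8, 64.8 and 41.4 normalized counts in Etv3-/- and 0, 15.0 and 0.428 in Etv3+/+ libraries (limma adjusted p = 0.242, 0.281 and 0.137). Erythroid markers were near 0, at 14.9 to 49.5 and 16.3 to 81.1, and Hba-a2, Alas2 and Epor were among those at 0. Neutrophil markers, at 11190 to 63965 and 40850 to 49124, and basophil, mast cell and eosinophil markers, at 8783 to 17403 and 9766 to 17190, overlapped between genotypes. The macrophage and B cell sums, and by a narrow gap the platelet sum, were higher in every Etv3-/- library than in either Etv3+/+ library, as Cd82 and Cd37 were, and the T and NK cell sum was lower, and the part of those cells in the tetraspanin values was not tested.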

How the data were processed

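The authors deposited normalized counts (a signal, reads over a library factor). The submitters' processing notes name DESeq2 1.26.0, STAR 2.7.3a, Subread 1.6.3, featureCounts and Trimmomatic 0.36, and the build mm10. The sources used here do not give their roles, annotation, strand setting or filters. Per the labels' protocols, RNA of up to 60000 sorted cells went into a SMART-Seq kit, without molecular identifiers named, so PCR copies may be among the reads. Division by the value of 1 read gave whole reads, within 0.1, for 100% of values.

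Groups came from the sample titles. All genes were tested with limma 3.58.1 (trend, R 4.3.3) on log2(normalized count + 1), two-sided, with Benjamini-Hochberg adjustment over 13813 genes and a threshold of 0.05. This scale shrinks most changes of low genes, but gives more than the ratio of means where 1 library is at 0, as for Tspan8. The design cannot give an exact permutation p below 0.1. Alternatives included edgeR 4.0.16 and DESeq2 1.42.0 on recovered reads. A GC correction by local regression (span 0.3) was added after seeing the data. Positions and merged exon lengths were from GENCODE M21 (GRCm38), with a GC content for 98.5% of tested genes. The limma procedure was tested on simulated data. The members and lists were chosen with earlier results of these data known. Members past the threshold, with an unadjusted p under 0.05, or among the 6 highest per length are given in full; the others by range. Partner genes that were not called were named beside the called ones after their values were seen. Figures used matplotlib 3.10.9.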

Additional observations from a re-analysis of the deposited data

How the results depend on the processing

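The tetraspanin count of 1, Cd82, held under other pseudocounts, filters and scalings, with sample weights, in edgeR and with the replicate block. It was 0 in limma without trend (7 members at an unadjusted p under 0.05) and without both libraries of strongest GC trend (9), 5 in DESeq2, 3 with the GC correction, and 0 to 2 over single-library omissions, with 7 or 8 at an unadjusted p under 0.05. Those omissions leave fewer libraries, and where 1 Etv3+/+ library remains it is assumed to vary like the others. In these settings, in the same order, all genes gave 93, 7, 1169, 314 and 0 to 80 calls against 165, and the 5 partner lists 2, 0, 23, 9 and 0 to 3 against 6, or 3 with no filter. Without Etv3-/- replicate 1 no gene passed in limma (1885 at an unadjusted p under 0.05). The replicate block gave 269 calls over all genes, and 274 with the GC correction. Deviations of libraries with the same number correlated at -0.03 and 0.04, so the numbers do not show a pairing, and the block leaves Etv3-/- replicate 3 without a partner. Cd53 ranged from -0.50 to 0.66 (log2) over single-library omissions. No other of 11 members given in full changed sign in 19 refits. The cause of these shifts was not tested. Etv3 was not called in any refit (log2 fold change -0.33 to -0.14). Depth was not varied. Tspan1, Tspan6, Tspan10, Tspan11 and Tspan15 had reads in at most 2 libraries. Tspan6, with 93 reads in Etv3+/+ replicate 1, and Tspan15 and Tspan10, with 46 and 32 in Etv3+/+ replicate 2, rest mostly or wholly on 1 library.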
